A study of Mus musculus with 6 samples.

Results

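The myogenic regulatory factors (MRFs) MyoD (Myod1), myogenin (Myog), Myf5 and MRF4 (Myf6), the MEF2 genes Mef2a, Mef2c and Mef2d, and the sine oculis homeobox gene Six4 are 8 transcription factors that act in skeletal muscle cells. They were chosen by gene symbol, with earlier results of these data known. Of the 8, 7 were found among the 11835 genes of the deposited table, through 14 transcripts. Myf6 was not analysed here. The cells were C2C12, a mouse myoblast line that forms multinucleated myotubes when serum is lowered, and they were differentiated in medium with 2% horse serum. A group of 3 libraries came from cells transfected with NC siRNA, the negative control (siNC), and a group of 3 from cells transfected with CNN3 siRNA, which targets the actin-binding protein calponin 3 (siCNN3). The cell type is labelled mouse myotube, whereas the study describes differentiating myoblasts. The study's methods give a harvest time for differentiation experiments in general, but tie neither it nor a particular CNN3 siRNA to these libraries, and all 6 libraries come from the same cell line.

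Expression was measured as FPKM, fragments scaled by transcript length and by the number of mapped fragments of the library, so levels are per length and can be compared between genes. The number of reads is not stated, so the depth behind each value is unknown. In siNC replicate 1, 2131 transcripts were listed at 0, against 978 to 1333 in the other libraries. Its summed FPKM was also the lowest. Nothing states that the libraries of a group came from separate cultures, and p-values measure only the spread between libraries. Cnn3 itself measured 62.8, 61.4 and 62.8 FPKM with NC siRNA and 19.0, 39.2 and 25.6 FPKM with CNN3 siRNA, which is 44.8% of the siNC mean, with no overlap (log2 fold change -1.19, adjusted p = 0.0669 by limma). The muscle marker Des, which encodes the muscle intermediate filament desmin, was at 84.3 to 125 FPKM in all 6 libraries. Myh3, embryonic myosin heavy chain, spanned 1.96 to 3.04 FPKM with NC siRNA. With CNN3 siRNA it spanned 0.209 to 0.451 FPKM, which are low values at an unknown depth.

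MRFs are basic helix-loop-helix proteins that bind the E-box, CANNTG, as dimers with E proteins. Myf5 and MyoD are known for setting up and maintaining the myoblast state, and myogenin for the step from the dividing myoblast to the differentiating, fusing cell. MEF2 proteins bind A/T-rich sites next to E-boxes in muscle genes and strengthen the action of MRFs, and sine oculis homeobox proteins such as Six4 bind the MEF3 site, TCAGGTT, and act together with EYA cofactors.

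All of these sites occur in front of Myog, which is why its promoter is shown. RefSeq (GRCm38.p6) gave 9 windows of 250 bases before the transcription start for 6 of the 8 genes, and the Myog window lies at chr1:134289754-134290003 on the plus strand. Its capitals mark matches to the E-box, to MEF3, and to a MEF2 core taken as 8 bases of A and T that begin with TA and end with TA, searched on both strands.
Myog: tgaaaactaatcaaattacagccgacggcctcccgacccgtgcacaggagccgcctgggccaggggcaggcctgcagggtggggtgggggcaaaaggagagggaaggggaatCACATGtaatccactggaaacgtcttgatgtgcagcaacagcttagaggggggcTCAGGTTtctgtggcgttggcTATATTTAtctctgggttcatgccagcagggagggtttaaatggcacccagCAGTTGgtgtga
The E-boxes were CACATG, from -138 to -133 counted from the RefSeq start, and CAGTTG, from -12 to -7. The second of them lies after the start that GENCODE gives (134289989). The MEF3 match ran from -84 to -78 and the MEF2 core TATATTTA from -63 to -56. All of these motifs together were found in 74 of 32851 windows of the same length (0.225%), where the E-box alone was found in 66.2%, MEF3 in 3.49% and the MEF2 core in 8.56%. A window of Mef2c (chr13:83503784-83504033) also held them all, but it lies before a start that none of the 3 Mef2c transcripts in the table uses. Of the remaining 7 windows, a Six4 window held MEF3, a Mef2c window held an E-box, and the others held none of these motifs. A match is a run of letters and says nothing on whether a factor was bound.

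MEF2 transcripts differ in a pair of alternative exons, alpha 1 and alpha 2, and in a short beta exon, and these are shown because the table resolves Mef2d and Mef2c into transcripts that use one or the other. As background, alpha 2 of Mef2d and Mef2c is known from striated muscle, and the beta exon from muscle and brain. The exon is in capitals, with the adjoining bases of the transcript in lower case. The sequences follow the strand of the gene in GRCm38, and lie at chr3:88158034-88158171 and chr3:88158221-88158355 (plus strand) for Mef2d and at chr13:83625265-83625408 and chr13:83625470-83625607 (plus strand) for Mef2c.
Mef2d alpha 1, in Mef2d-201 and Mef2d-204: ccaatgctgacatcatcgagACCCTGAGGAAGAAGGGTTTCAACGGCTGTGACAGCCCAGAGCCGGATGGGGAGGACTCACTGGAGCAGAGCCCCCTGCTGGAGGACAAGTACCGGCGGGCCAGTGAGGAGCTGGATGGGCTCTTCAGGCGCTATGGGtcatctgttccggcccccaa
Mef2d alpha 2, in Mef2d-202: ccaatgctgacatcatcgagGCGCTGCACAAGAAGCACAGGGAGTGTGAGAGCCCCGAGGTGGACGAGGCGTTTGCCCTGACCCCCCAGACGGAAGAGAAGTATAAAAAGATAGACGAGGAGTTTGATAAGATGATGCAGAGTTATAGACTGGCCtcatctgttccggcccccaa
Mef2c alpha 1, in Mef2c-222 and Mef2c-227: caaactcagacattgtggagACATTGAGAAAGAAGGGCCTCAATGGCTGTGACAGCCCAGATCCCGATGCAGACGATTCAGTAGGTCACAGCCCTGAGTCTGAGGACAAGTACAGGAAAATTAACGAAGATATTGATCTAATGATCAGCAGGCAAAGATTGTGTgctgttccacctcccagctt
Mef2c alpha 2, in Mef2c-215: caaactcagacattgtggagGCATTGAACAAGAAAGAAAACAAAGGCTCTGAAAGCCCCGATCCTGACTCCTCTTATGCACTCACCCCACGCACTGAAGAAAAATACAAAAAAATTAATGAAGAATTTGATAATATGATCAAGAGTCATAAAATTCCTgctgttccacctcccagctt
The beta exon has 24 bases in both genes whose transcripts in the table carry it, Mef2a (chr7:67244521-67244544, minus strand) and Mef2c (chr13:83654598-83654621, plus strand).
Mef2a beta, in Mef2a-208: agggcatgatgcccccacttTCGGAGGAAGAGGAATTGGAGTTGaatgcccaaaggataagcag
Mef2c beta, in Mef2c-222: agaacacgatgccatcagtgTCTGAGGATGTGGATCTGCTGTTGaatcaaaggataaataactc

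By level in the siNC cells, Mef2d stood first at 22.1 ± 4.80 FPKM (SD, n = 3), followed by Mef2a at 10.7 ± 1.44, Six4 at 8.28 ± 1.39 and Myf5 at 4.68 ± 1.05. The values of each of these genes lay above all values of the next. Myod1 (2.37 ± 0.638 FPKM), Myog (2.18 ± 0.921) and Mef2c (1.81 ± 0.458) came last, below Myf5, and could not be ordered because their values overlapped. In the siCNN3 cells Mef2d was again first (20.1 ± 6.31 FPKM), and Myf5 (9.93 ± 4.0), Six4 (7.33 ± 0.825) and Mef2a (6.95 ± 1.07) overlapped one another. Myod1 (1.48 ± 0.103 FPKM) then lay above Mef2c (1.05 ± 0.132), and Mef2c above Myog (0.725 ± 0.217), with no overlap between neighbours. Over all 6 libraries Mef2d ranked 3185 of 11593 tested genes by mean level, while Myod1, Myog and Mef2c ranked 10199, 10577 and 10598, so the MyoD, myogenin and Mef2c results rest on low values.

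**Figure D1:**
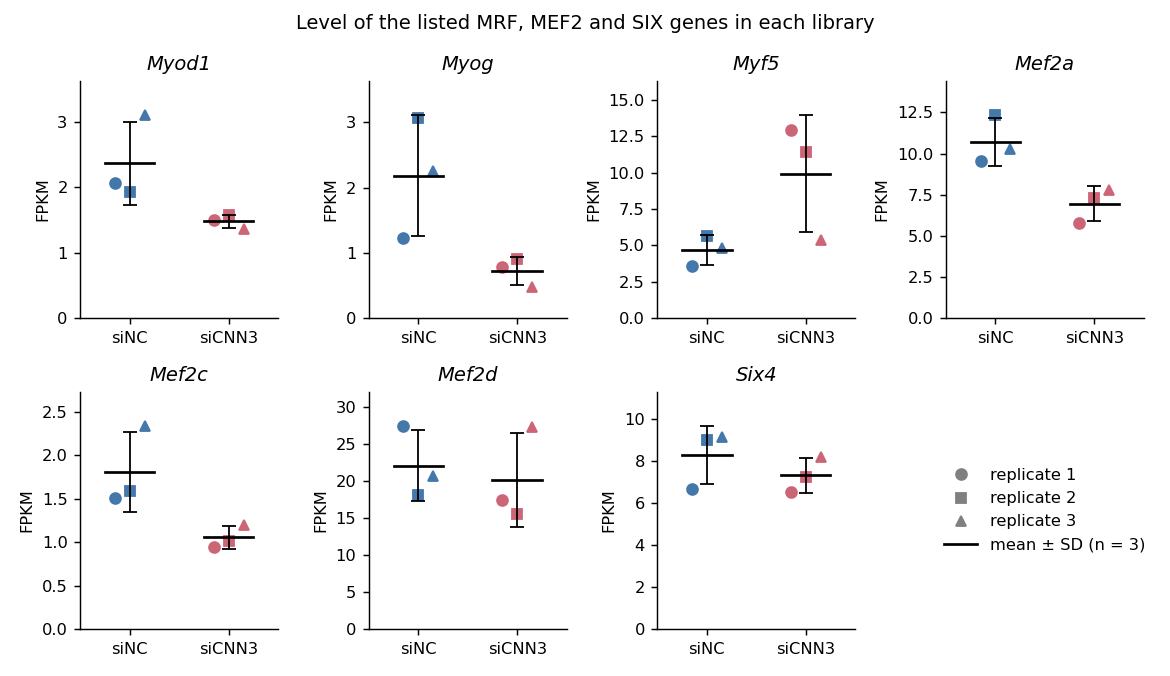
Level in FPKM (linear axes from 0) of the 7 genes in each of the 6 libraries; the symbol gives the replicate and the bars the mean ± SD of 3 libraries. All siCNN3 points of Myod1, Myog, Mef2a and Mef2c lie below all siNC points, while those of Myf5, Mef2d and Six4 overlap with siNC.

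The main comparison asked whether the siCNN3 cells differed from the siNC cells in these factors. The fit was limma on log2(FPKM + 1) over all 11593 tested genes, and a log2 fold change is siCNN3 minus siNC on that scale, which understates the change of low genes. All 7 genes passed the filter of a mean of 0.5 FPKM. None of the 7 passed an adjusted p of 0.05 (limma, Benjamini-Hochberg), where 2.06% of all tested genes did (200 higher, or 1.73%, and 39 lower; 199 and 93 after quantile normalization). At an unadjusted p under 0.05, 3 of the 7 were lower (Myog, Mef2a and Mef2c), against 6.14% of all tested genes, and 1 was higher (Myf5), against 9.94%. In 4 of the 7 (Myod1, Myog, Mef2a and Mef2c) every siCNN3 value lay below every siNC value, against 9.35% of all tested genes. The median log2 fold change was -0.42 for the 7 genes and 0.03 for all tested genes. These shares and medians describe genes chosen with earlier results known, and are not a test of the group. In bulk RNA, fewer cells expressing a gene and less of its RNA per cell cannot be told apart.

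Myog, the differentiation factor, had the lowest ratio between the groups. It had siNC values of 1.23, 3.07 and 2.26 FPKM and siCNN3 values of 0.785, 0.907 and 0.485 FPKM. The siNC libraries spread widely, with replicate 1 the lowest of them, yet the groups did not overlap. The siCNN3 mean was 33.2% of the siNC mean, with a log2 fold change of -0.85 (SE 0.251, 95% interval -1.44 to -0.25, adjusted p = 0.159 by limma with Benjamini-Hochberg adjustment). With a pseudocount of 0.1 it was -1.42. An exact two-sided permutation test of 3 against 3 gave p = 0.1, the smallest value that it can give.

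Myod1, which is expressed in dividing as well as differentiating myoblasts, reached 2.07, 1.93 and 3.10 FPKM with NC siRNA and 1.5, 1.57 and 1.37 FPKM with CNN3 siRNA. The siCNN3 libraries lay close together below the siNC libraries, of which replicate 3 was the highest. The siCNN3 mean was 62.6% of the siNC mean (log2 fold change -0.42, SE 0.180, adjusted p = 0.312, limma), and the 95% interval reached from -0.85 to just above 0. Without siNC replicate 3 the log2 fold change was -0.27.

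Myf5, the MRF that marks undifferentiated myoblasts, was the single member with a positive difference. It measured 3.55, 5.64 and 4.84 FPKM in the siNC libraries against 13.0, 11.4 and 5.40 in the siCNN3 libraries. Replicates 1 and 2 of siCNN3 were above all siNC libraries, while siCNN3 replicate 3 lay within their range. The mean of siCNN3 was 212% of that of siNC, with a log2 fold change of 0.88 (SE 0.318, 95% interval 0.13 to 1.64, adjusted p = 0.238, limma). Without siCNN3 replicate 3 the log2 fold change was 1.23 and the adjusted p 0.0297 (limma, Benjamini-Hochberg), which was the 1 alternative under which any of the 7 genes was called.

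Since a ratio within a library does not depend on its scaling, the MRFs were also compared with one another. Myf5 made up 51.9%, 53.1% and 47.5% of the summed FPKM of Myf5, Myod1 and Myog in the siNC libraries and 85.0%, 82.2% and 74.4% in the siCNN3 libraries. Its share was thus 50.8% ± 2.95 in siNC and 80.5% ± 5.46 in siCNN3 (SD, n = 3), with no overlap. Shares of a sum depend on one another and restate the levels above. In siCNN3 replicate 3 the Myf5 level lay within the siNC range. Its higher share there rests on the low levels of Myod1 (1.37 FPKM) and Myog (0.485 FPKM). The Myog share was 17.9%, 28.8% and 22.2% in siNC against 5.15%, 6.52% and 6.69% in siCNN3, again without overlap. The Myod1 share was 30.2%, 18.1% and 30.4% in siNC and 9.87%, 11.3% and 18.9% in siCNN3, where siCNN3 replicate 3 lay just above siNC replicate 2. The sum itself overlapped between the groups, with 6.85, 10.6 and 10.2 FPKM in the siNC libraries against 15.2, 13.9 and 7.25 in the siCNN3 libraries.

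**Figure D2:**
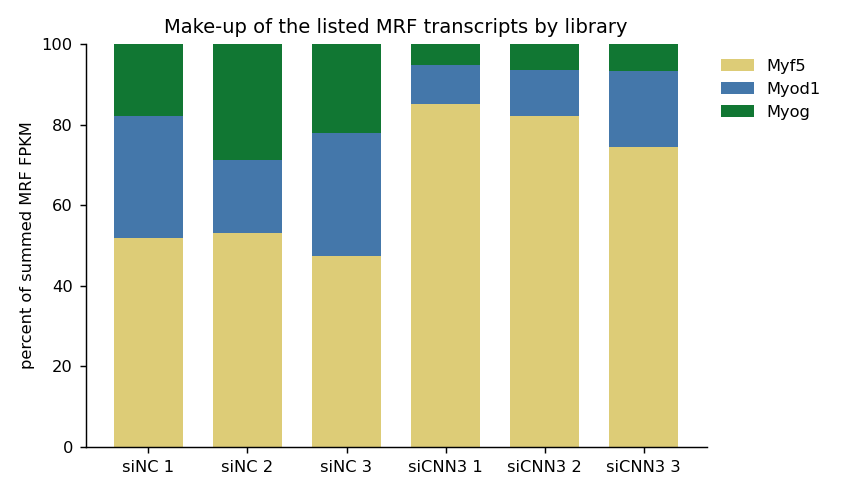
Percent of the summed FPKM of Myf5, Myod1 and Myog (vertical axis) taken by each gene in each of the 6 libraries, as stacked bars. Myf5 takes 47.5% to 53.1% in the siNC libraries and 74.4% to 85.0% in the siCNN3 libraries.

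The ratio of Myf5 to Myod1 was 1.72, 2.93 and 1.56 in siNC and 8.61, 7.28 and 3.95 in siCNN3, with means of 2.07 ± 0.747 and 6.61 ± 2.40 (SD, n = 3). All siCNN3 ratios lay above all siNC ratios. In siCNN3 replicate 3, where Myf5 lay within the siNC range, this rests on the low Myod1 level. The ratio of Myog to Myod1 was 0.593, 1.59 and 0.730 in siNC and 0.522, 0.578 and 0.355 in siCNN3. The groups did not overlap here either, but siNC replicate 1 and siCNN3 replicate 2 lay nearly together. For each of these ratios, and for the Myf5 and Myog shares, the exact two-sided permutation p was 0.1, which 3 against 3 cannot go below.

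Among the MEF2 genes, Mef2a had siNC values of 9.53, 12.3 and 10.3 FPKM and siCNN3 values of 5.76, 7.28 and 7.82 FPKM. The groups did not overlap, and the siCNN3 mean was 64.9% of the siNC mean. The log2 fold change was -0.56 (SE 0.166, 95% interval -0.95 to -0.17, adjusted p = 0.161, limma).

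Mef2c, which is known as a direct target of myogenin and MEF2 in muscle, reached 1.51, 1.59 and 2.34 FPKM with NC siRNA and 0.944, 1.02 and 1.20 FPKM with CNN3 siRNA. The siCNN3 values were all below the siNC values, at 58.3% of the siNC mean (log2 fold change -0.44, SE 0.175, adjusted p = 0.282, limma). With a pseudocount of 0.1 the log2 fold change was -0.71, and with the transcript of highest mean, Mef2c-227, in place of the sum its sign turned, to 0.32 (adjusted p = 0.699, limma). Mef2c-227 was listed at 0 in siNC replicate 3. The separation rests on the transcript Mef2c-215, which was at 0 in every siCNN3 library: without it the sums were 1.15, 1.04 and 1.63 FPKM for siNC against 0.944, 1.02 and 1.20 FPKM for siCNN3, and overlapped.

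Mef2d, the most highly expressed of the 7, measured 27.4, 18.1 and 20.7 FPKM in the siNC libraries against 17.5, 15.6 and 27.3 in the siCNN3 libraries. The highest library of each group was near 27 FPKM, siNC replicate 1 and siCNN3 replicate 3, and the groups overlapped. The log2 fold change was -0.15 (SE 0.244, 95% interval -0.73 to 0.43, adjusted p = 0.807, limma), and it was 0.01 without siNC replicate 1 or siCNN3 replicate 2, -0.07 without siCNN3 replicate 1, -0.27 without siNC replicate 2 and -0.38 without siCNN3 replicate 3. With quantile normalization it was -0.25, and with its transcript of highest mean in place of the sum it was -0.09. A difference of the size seen in Mef2a lies within this interval.

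The make-up of the summed MEF2 FPKM overlapped between the groups for all of its genes. Mef2d took 71.3%, 56.6% and 62.2% in siNC and 72.3%, 65.3% and 75.2% in siCNN3. Mef2c took 3.91%, 4.95% and 7.01% in siNC and 3.90%, 4.26% and 3.30% in siCNN3. Mef2a took the rest, between 21.5% and 38.4% of the sum over all libraries.

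Six4, which binds MEF3 sites and activates Myog, had siNC values of 6.69, 8.99 and 9.17 FPKM and siCNN3 values of 6.54, 7.27 and 8.19 FPKM. The groups overlapped, with the siCNN3 mean at 88.5% of the siNC mean. The log2 fold change was -0.15 (SE 0.168, 95% interval -0.55 to 0.25, adjusted p = 0.710, limma). The value was -0.28 without siNC replicate 1, -0.09 without siNC replicate 2, -0.08 without siNC replicate 3 and -0.08 without siCNN3 replicate 1.

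**Figure D3:**
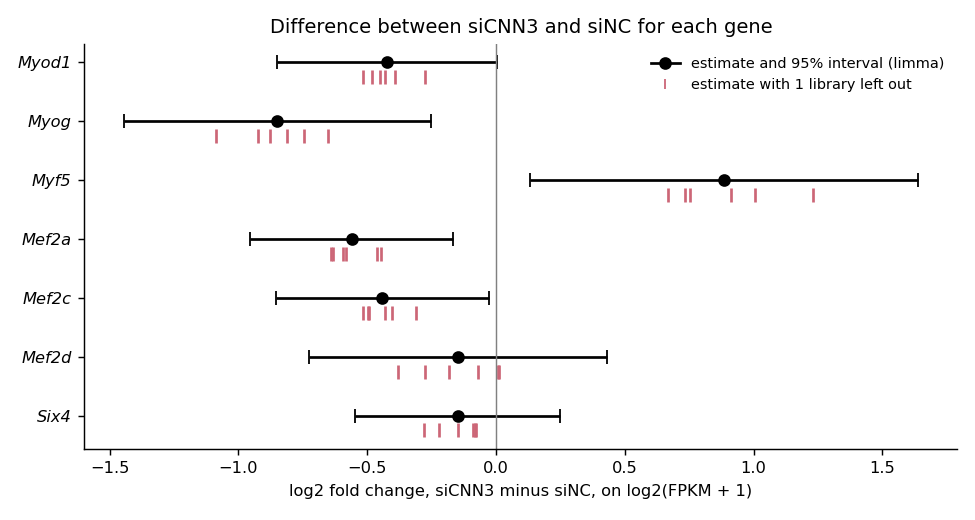
Log2 fold change (siCNN3 minus siNC, on log2(FPKM + 1)) of each of the 7 genes with its 95% interval from limma, in black, and the estimates with 1 library left out, in red. The estimates for Myf5 stay above 0, at 0.67 to 1.23, those for Myog stay below 0, at -1.09 to -0.65, and those for Mef2d fall on both sides of 0.

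The same fit on single transcripts tested 12 of the 14 transcripts of these genes, and none of the 12 passed an adjusted p of 0.05 (limma), where 0.54% of 21658 transcripts did. At an unadjusted p under 0.05, 2 of the 12 were lower (Myog-201 and Mef2a-208), against 3.91% of all tested transcripts, and 1 was higher (Myf5-201), against 6.8%. Myod1, Myog and Myf5 were each represented by 1 transcript, so their isoforms could not be compared. In 4 of the 12 every siCNN3 value lay below every siNC value, against 7.54% of all tested transcripts. Since programs that estimate transcript levels sometimes fail and return 0, a value of 0 is not proof of absence, and for transcripts with such a value the level in each library is given without a mean, and a fold change only where such a transcript stood in for the sum of its gene.

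Mef2a-208, which carries alpha 1 and the beta exon, reached 6.77, 9.88 and 8.07 FPKM with NC siRNA and 4.42, 5.49 and 5.83 FPKM with CNN3 siRNA. All siCNN3 values were below the siNC values (log2 fold change -0.56, adjusted p = 0.384, limma). Mef2a-201, which carries alpha 2 and lacks the beta exon, measured 1.63, 1.68 and 1.40 FPKM in the siNC libraries against 1.33, 1.02 and 1.15 in the siCNN3 libraries. These groups did not overlap either (log2 fold change -0.25, adjusted p = 0.694, limma). Mef2a-203, another transcript with alpha 2, had siNC values of 1.13, 0.755 and 0.805 FPKM and siCNN3 values of 0, 0.772 and 0.834 FPKM. The proportions of the isoforms overlapped: Mef2a-208 made up 76.6% ± 4.87 of the Mef2a FPKM in siNC and 75.6% ± 1.13 in siCNN3 (SD, n = 3).

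For Mef2d, the alpha 2 transcript Mef2d-202 shown above reached 1.31, 0.963 and 0.926 FPKM with NC siRNA and 1.04, 0.997 and 0.491 FPKM with CNN3 siRNA. It was the least abundant of the 3 Mef2d transcripts in every library and its groups overlapped. Its share of the Mef2d FPKM was 4.85% ± 0.427 in siNC and 4.72% ± 2.54 in siCNN3 (SD, n = 3), with 1.79% in siCNN3 replicate 3 and 4.47% to 6.40% in the other 5 libraries. The alpha 1 transcripts took the rest, with Mef2d-201 at 10.7 to 22.1 FPKM and Mef2d-204 at 3.23 to 7.13 FPKM over all libraries.

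For Mef2c, the alpha 2 transcript Mef2c-215 was at 0.356, 0.540 and 0.711 FPKM in siNC and was listed at 0 in all 3 siCNN3 libraries. It did not reach a mean of 0.5 FPKM and was not tested, and its annotation of 1060 nucleotides stops inside the coding sequence. Mef2c-227, with alpha 1 and without the beta exon, measured 1.15, 1.04 and 0 FPKM in the siNC libraries against 0.911, 1.02 and 1.20 in the siCNN3 libraries. Mef2c-222, with alpha 1 and the beta exon, measured 0, 0.00522 and 1.63 FPKM in the siNC libraries against 0.0325, 0.000146 and 0.00169 in the siCNN3 libraries. Mef2c-227 and Mef2c-222 thus changed places in siNC replicate 3, where all FPKM of alpha 1 transcripts was given to the form with the beta exon and none to the form without it. The siNC fraction of Mef2c assigned to alpha 2, 23.7%, 34.1% and 30.4%, rests on levels under 1 FPKM.

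**Figure D4:**
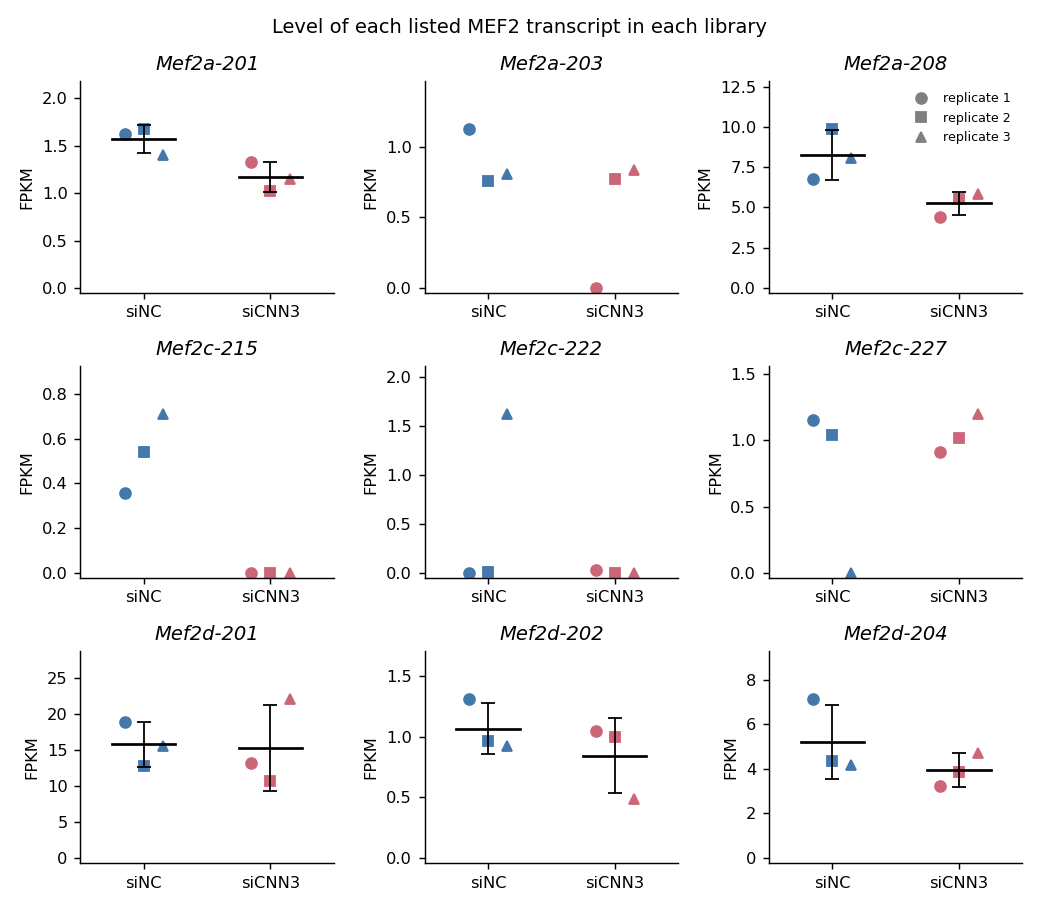
Level in FPKM (linear axes) of the 9 transcripts of Mef2a, Mef2c and Mef2d in each of the 6 libraries; the symbol gives the replicate, and bars give mean ± SD of 3 libraries only where no library is at 0. Mef2a-208 and Mef2a-201 show no overlap between the groups, and Mef2c-215 is at 0 in the 3 siCNN3 libraries.

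The genes around these factors were described from lists of target genes, partners, repressors and upstream factors. The lists, too, were chosen with earlier results of these data known. Their shares beside those of all tested genes are a description, not a test. Of 45 target genes of MRFs and MEF2, 33 were found and 29 tested. Lower levels in siCNN3 passed an adjusted p of 0.05 for 9 of the 29 (limma, Benjamini-Hochberg), or 31.0%, against 0.336% of all tested genes, and a higher level for none. At an unadjusted p under 0.05, 21 of the 29 were lower (72.4%, against 6.14% of all tested genes) and 0 higher (against 9.94%). The median log2 fold change of the 29 was -0.84, against 0.03 over all tested genes. The count of 9 depended on single libraries and on the processing: it was 1 without siNC replicate 3, 1 without siCNN3 replicate 2 and 2 without siCNN3 replicate 1. Lower calls over all 11593 tested genes, 39 in the main fit, were then 4, 4 and 7. The count of target genes was 10 without siCNN3 replicate 3 (161 lower over all genes) and 11 with quantile normalization (93 lower). It was 4 of 13 with the filter raised to 5 FPKM, where 28 of all 8181 tested genes were called lower. With the transcript of highest mean in place of the sum it was 5 of 29, where 22 of all 11565 were.

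The 9 that fell encode parts of the contractile apparatus: skeletal alpha-actin (Acta1), embryonic myosin heavy chain (Myh3), the myosin light chains Myl1, Myl4 and Mylpf, and the troponin subunits Tnnt1, Tnnt3, Tnnc2 and Tnni2. Tnnt3 had siNC values of 7.43, 10.3 and 10.4 FPKM and siCNN3 values of 2.42, 2.43 and 3.11 FPKM, with a log2 difference of -1.5 (SE 0.180, adjusted p = 0.0144, limma). Myl4 reached 5.81, 8.19 and 5.64 FPKM with NC siRNA and 2.33, 1.63 and 2.36 FPKM with CNN3 siRNA (log2 fold change -1.27, SE 0.194, adjusted p = 0.0304, limma). The groups were well apart in both genes. Log2 fold changes of the 9 ran from -2.12 for Acta1 to -0.92 for Myl1. This order depends on level, since the scale understates the change of low genes. The siCNN3 mean was 20.1% of the siNC mean for Acta1, but 12.0% for Tnnc2 and 12.5% for Myh3. The targets of highest level were not called. Itga7, a muscle laminin receptor subunit, measured 150, 119 and 138 FPKM in the siNC libraries against 70.5, 74.6 and 125 in the siCNN3 libraries, where replicate 3 reached into the siNC range (adjusted p = 0.244, limma). The log2 fold change was -0.36 for Des (adjusted p = 0.196, limma) and 0.17 for Cdkn1a, the cell cycle inhibitor p21 (adjusted p = 0.718, limma).

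**Figure D5:**
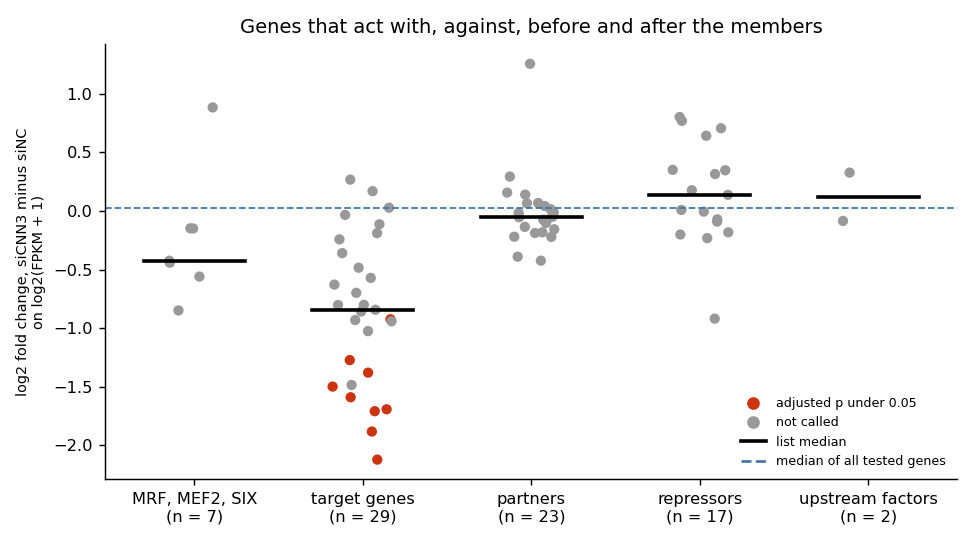
Log2 fold change (siCNN3 minus siNC, on log2(FPKM + 1)) of each tested gene of the 5 lists, with the list median as a black line, genes with an adjusted p under 0.05 in red, and the median of all tested genes (0.03) as a dashed line. The 9 red points are all target genes, which lie mostly below 0, while partners (median -0.05) lie around 0.

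Of 27 partners and coactivators, 24 were found and 23 tested, and none was called (limma), with 1 lower and 1 higher at an unadjusted p under 0.05 (4.35% each, against 6.14% and 9.94% of all tested genes). The E proteins that dimerise with MRFs overlapped between the groups: Tcf3 spanned 22.6 to 29.0 FPKM with NC siRNA and 24.1 to 26.5 FPKM with CNN3 siRNA, and Tcf12 24.0 to 35.9 and 26.4 to 35.2 FPKM. Their log2 fold changes were -0.05 (95% interval -0.38 to 0.27) and 0.04 (-0.39 to 0.48). Eya1, a cofactor of Six4, reached 5.51, 8.47 and 6.43 FPKM with NC siRNA and 5.19, 4.35 and 4.72 FPKM with CNN3 siRNA, without overlap (log2 fold change -0.42, adjusted p = 0.311, limma). Carm1, an arginine methyltransferase that acts as a coactivator of MEF2 and MRFs, had the largest difference of the list, with 3.36, 4.50 and 2.82 FPKM in the siNC libraries against 9.55, 13.5 and 7.19 in the siCNN3 libraries. All siCNN3 values were above the siNC values, and the log2 fold change was 1.26 (SE 0.248, adjusted p = 0.0614, limma). It was called without siCNN3 replicate 3 (log2 fold change 1.45, adjusted p = 0.0273, limma) and with its transcript of highest mean in place of the sum (2.22, adjusted p = 0.0181, limma). For Rb1, the retinoblastoma protein, the log2 fold change was -0.39 (adjusted p = 0.298, limma).

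Of 21 repressors, 18 were found and 17 tested, and none was called (limma). At an unadjusted p under 0.05, 5 of the 17 were higher (29.4%, against 9.94% of all tested genes) and 0 lower (against 6.14%), and in 5 (29.4%) all siCNN3 values were above all siNC values, against 13.8% of all tested genes. Snai2, which keeps MyoD from E-boxes of differentiation genes in myoblasts, measured 28.2, 31.9 and 30.1 FPKM in the siNC libraries against 53.2, 51.4 and 39.1 in the siCNN3 libraries. The groups did not overlap (log2 fold change 0.64, SE 0.148, adjusted p = 0.0885, limma), and without siCNN3 replicate 3 the gene was called (0.78, adjusted p = 0.0208, limma). Twist2, which sequesters E proteins, had siNC values of 15.2, 24.0 and 23.3 FPKM and siCNN3 values of 37.2, 37.8 and 32.0 FPKM, also without overlap (log2 fold change 0.77, SE 0.192, adjusted p = 0.108, limma). Hes1, a repressor downstream of Notch, had a log2 fold change of 0.80 with overlapping groups (adjusted p = 0.248, limma). Hdac7, a class IIa histone deacetylase that binds MEF2, reached 7.59, 6.31 and 6.96 FPKM with NC siRNA and 1.13, 3.94 and 6.03 FPKM with CNN3 siRNA. Its siCNN3 values were spread widely below siNC, and the log2 fold change was -0.92 (SE 0.413, adjusted p = 0.335, limma). Bhlhe40 was highest in siNC replicate 1 (45.3 FPKM) and siCNN3 replicate 3 (54.5 FPKM), the same libraries in which Mef2d was highest, and was at 19.3 to 27.0 FPKM in the others.

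Of 9 upstream factors 2 were found, and neither was called (limma, 0 at an unadjusted p under 0.05). Tbx1, a T-box gene of head muscle, had siNC values of 2.74, 3.97 and 4.65 FPKM and siCNN3 values of 5.07, 4.97 and 4.73 FPKM. The siCNN3 values of Tbx1 lay just above the siNC values (log2 fold change 0.33, adjusted p = 0.436, limma). Pax3 and Pax7 were not analysed here.

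By the Pearson correlation of log2(FPKM + 1) over the 6 libraries, among the 8181 genes averaging 5 FPKM or more, the patterns most like that of Myog included those of Mylk (0.998), Emilin1 (0.997), Wdr6 (0.995) and Peg3 (0.994). The most like that of Myod1 were those of Map3k11 (0.993), Arl5a (0.992), Fam20b (0.991), Uck2 (0.990) and Rab4b (0.975). These values are a description: each gene was chosen for its likeness, and the points share the contrast between the groups. Of these genes, Mylk reached 8.91, 15.8 and 12.7 FPKM with NC siRNA and 7.11, 7.12 and 5.74 FPKM with CNN3 siRNA, which repeats the order of Myog in siNC, with replicate 2 highest and replicate 1 lowest. Rab4b measured 7.43, 6.88 and 12.4 FPKM in the siNC libraries against 5.39, 5.84 and 5.88 in the siCNN3 libraries, where the high value of siNC replicate 3 is shared with Myod1. All of these genes had siCNN3 values wholly below siNC.

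Marker lists were also summed, and the sums did not overlap between the groups except for the adipocyte list and for Tek. The summed level of 18 interferon response genes was 76.2, 599 and 235 FPKM in siNC and 4949, 4800 and 2795 FPKM in siCNN3, and 13 of the 18 were higher at an adjusted p of 0.05 (limma), against 1.73% of all tested genes. Among siCNN3 libraries the sum was lowest in replicate 3, as was Myf5. The summed level of 5 of 7 fibroblast markers was 761 to 1063 FPKM in siNC and 408 to 551 FPKM in siCNN3, with Col3a1 the largest part. None of the 5 was called, and Pdgfra and Col1a1 overlapped between the groups. For 5 of 7 smooth muscle markers, which include Des, the sum was 417 to 590 FPKM and 305 to 352 FPKM, with Acta2 the largest part. None of these 5 was called, and Cnn1 and Smtn overlapped. For 4 of 6 adipocyte markers it was 39.9 to 61.1 FPKM and 36.4 to 43.2 FPKM (1 of the 4, Fabp4, was called lower). For 4 of 9 blood and immune markers, most of it globin, it was 170 to 490 FPKM and 37.1 to 51.5 FPKM. Of these 4, the 2 near-identical genes Hbb-bs and Hbb-bt were called lower. Of 5 endothelial markers, Tek was found, with 0.681 to 1.37 FPKM in the siNC libraries and 0.733 to 1.24 in the siCNN3 libraries. For 10 of 11 myogenic markers, which include Myod1 and Myog, the sum was 307 to 326 FPKM in siNC and 185 to 251 FPKM in siCNN3, with Itga7 and Des the largest parts and Itga7 itself overlapping between the groups. Of these 10, Myh3, Acta1 and Tnnt1 were lower at an adjusted p of 0.05 (limma), and 0.336% of all tested genes were. The part of these differences in the results for the 7 genes was not tested.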

How the data were processed

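The authors deposited FPKM values for 24023 Ensembl transcripts in 6 libraries of C2C12 cells, 3 siNC and 3 siCNN3. The submitters' processing notes name Bowtie 0.12.2 and the builds mm8 and mm10 without saying what each was used for; the read numbers, the annotation and the program behind the FPKM values are not given in the sources used here. Identifiers were matched without their version to GENCODE M21 (GRCm38), which matched 23949 transcripts. The 74 without a match, with 0.159% to 0.220% of a library's FPKM, were not used. FPKM was summed per gene (11835 genes), and the 11593 genes averaging 0.5 FPKM or more were tested. Values were transformed to log2(FPKM + 1), and limma 3.58.1 (R 4.3.3) gave two-sided moderated tests, with a trend of variance on mean level and Benjamini-Hochberg adjustment over all tested genes (threshold 0.05). The fit was tested on simulated data. The R package data.table (version 1.17.8) read the input, and figures were drawn with matplotlib 3.10.9 (Python 3.11.15, numpy 2.4.6, pandas 2.3.3).

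The 8 genes and all lists were chosen with earlier results of these data known. Named genes were all 8, Cnn3, the 5 genes most correlated with Myod1 and with Myog, and from each list the 3 with the largest change, the 3 of highest level and those called; marker genes are given by their sums, with those named in passing chosen after their values were seen. Not every gene that meets the rule is given with all of its values. Some genes that meet it are not reported here. Alternatives were a pseudocount of 0.1, quantile normalization, no filter, a filter at 5 FPKM, no trend, median-of-ratios scaling, a replicate block, the transcript of highest mean in place of the sum, single transcripts, and each library left out. Replicate numbers are taken from the sample titles and pair nothing that the labels state.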

Additional observations from a re-analysis of the deposited data

How the results depend on the processing

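Of 101 values of the 7 genes under the alternatives, 97 kept their direction and their side of the threshold, 1 became a call and 3 changed sign. The call was Myf5 without siCNN3 replicate 3 (log2 fold change 1.23, lowest 0.67 with another library left out), so the number of the 7 genes called was 0 to 1 with a library left out, and 0 otherwise. The sign changed for Mef2d without siNC replicate 1 (0.012) and without siCNN3 replicate 2 (0.0070), with a lowest value of -0.38, and for Mef2c with the transcript of highest mean (0.32), under which its share of the MEF2 FPKM was also 2.09 percentage points higher in siCNN3 instead of lower. That transcript, Mef2c-227, was listed at 0 in siNC replicate 3, and without that library its log2 difference was -0.04. The causes of the sign changes were not tested. With a library left out, 1 to 10 target genes were called, 0 to 1 partners, 0 to 1 repressors and 20 to 605 of all genes. Target genes called numbered 4 with a filter at 5 FPKM, where fewer genes were tested, and 5 with the transcript of highest mean, under which 1 partner and 122 of all genes were called. Keeping only transcripts above 0 in every library, an alternative chosen after seeing the data, gave 152 calls over all genes.

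Replicate numbers did not pair the libraries: deviations from the group means correlated across genes at -0.28, 0.31 and -0.02 for same-numbered libraries. With the replicate number as a block, 0 of the 7 genes, 3 target genes and 68 of all genes were called. Depth is unknown, so levels near or under 1 FPKM, as for Myog and Mef2c, have no stated counting error.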

Other observations

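The libraries siNC replicate 1 and siCNN3 replicate 3 deviated from their groups together (correlation 0.44 of deviations from the group means, across genes). Genes picked after their values were seen show the same pattern as Mef2d and Bhlhe40: Hdac5, a class IIa histone deacetylase that binds MEF2, had siNC values of 29.6, 19.6 and 24.7 FPKM and siCNN3 values of 15.1, 16.9 and 36.1 FPKM, and Snai1 reached 34.4, 19.6 and 28.3 FPKM with NC siRNA and 14.4, 15.9 and 49.6 FPKM with CNN3 siRNA. In both genes the highest library of each group was siNC replicate 1 and siCNN3 replicate 3, and the groups overlapped.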
